A study of Mus musculus with 4 samples.

Results

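*Ccn1*, *Ccn2*, *Lats2* and *Thbs1* are 4 genes known as transcriptional targets of the coactivator YAP, and all 4 had a higher expression level in mouse embryonic stem cells (mESCs) that received *Rhox6* shRNA than in *scramble* control cells. They are 4 of the 920 genes in a table that holds only genes the authors had called as differentially expressed between these libraries. The 4 genes were selected by name from that table with their difference between the groups already known, so their levels in this contrast are given as a description and without a test. The libraries came from 46C mESCs, a line with a green fluorescent reporter in the *Sox1* locus. The *scramble* group (n = 2 libraries) was infected with a lentivirus carrying a control hairpin, and the *Rhox6* shRNA group (n = 2 libraries, called knockdown below) with one carrying a hairpin against *Rhox6*, an X-linked homeobox gene. Both groups were grown for 24 h in medium with serum. By the methods of the study, virus-treated cells were selected with puromycin and/or blasticidin, and the mESC medium held leukemia inhibitory factor, which the sample labels do not name. All libraries stem from 1 cell line, and the sample labels do not name the hairpin, while the table heads the mean of both knockdown libraries Rh6_Sh1.

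In the Hippo pathway, the kinases LATS1 and LATS2 phosphorylate YAP and its paralog TAZ, which keeps them out of the nucleus. When the kinases are inactive, YAP enters the nucleus and binds TEAD transcription factors, which recognize a short DNA motif and activate genes of adhesion, matrix and growth. Cell density, polarity and tension of the actin cytoskeleton are known inputs. In the mouse blastocyst, this pathway separates the trophectoderm, where YAP is nuclear, from the inner cell mass, the source of mESCs. *Ccn1* (also called *Cyr61*) and *Ccn2* (also called *Ctgf*) encode secreted matricellular proteins that bind integrins and are widely used as readouts of YAP activity. *Thbs1* encodes thrombospondin 1, a matricellular protein that binds CD36 and CD47 and can activate latent TGF-β. *Lats2* encodes one of the kinases that inhibit YAP and is itself a target of YAP, which closes a feedback loop.

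Promoter windows are shown for the members matched in the RefSeq table of build GRCm38.p6, since YAP reaches DNA through TEAD factors. The genes were chosen as known YAP targets, so a TEAD motif is not independent of that choice. The table holds 250 bases before and 50 bases after each annotated start, and 2 of the 4 genes matched, *Ccn1* and *Lats2*. The motif searched was GGAATG or its reverse complement CATTCC, so both strands were covered. Capitals mark the match in the windows below, which are printed 5′ to 3′ on the strand of the gene.
*Ccn1*, chr3:145649936-145650235, − strand: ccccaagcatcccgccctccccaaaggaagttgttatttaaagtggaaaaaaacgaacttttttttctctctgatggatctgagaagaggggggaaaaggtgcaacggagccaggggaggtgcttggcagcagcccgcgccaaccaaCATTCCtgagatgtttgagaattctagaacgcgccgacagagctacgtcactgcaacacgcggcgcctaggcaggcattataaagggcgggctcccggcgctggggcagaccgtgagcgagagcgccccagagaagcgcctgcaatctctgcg
*Lats2*, chr14:57746074-57746373, − strand: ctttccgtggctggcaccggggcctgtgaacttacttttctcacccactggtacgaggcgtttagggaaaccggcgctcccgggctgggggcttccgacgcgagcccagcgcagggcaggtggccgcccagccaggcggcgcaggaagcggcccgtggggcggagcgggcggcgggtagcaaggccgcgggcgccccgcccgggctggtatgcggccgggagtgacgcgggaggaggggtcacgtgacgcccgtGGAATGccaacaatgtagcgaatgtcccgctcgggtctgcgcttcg

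The *Ccn1* window held 1 match, which began 103 bases before the start. The first *Lats2* window held 1 match as well, which began at base 5 after the start. This RefSeq start lies inside the longer GENCODE span of *Lats2*, and the window also holds the annotated start of the overlapping gene model *Gm49361* on the same strand, at base 57746103, so it is a promoter window of both. A second *Lats2* start in the same table, with its window at chr14:57734369-57734668, had no match. Of all 32851 promoter windows in the table, 14.7% held the motif. The share was 18.3% over 404 windows of listed genes that were called higher and 15.4% over 364 windows of listed genes called lower. No window of *Ccn1* or *Lats2* held the AP-1 motif TGANTCA, found in 7.81% of all windows, or a CArG box, the motif of the serum response factor, found in 1.63%. A match describes the letters in these windows and is not evidence of binding. Sites outside the windows were not searched, so a missing match does not show that a gene lacks the motif.

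*Ccn1* (ENSMUSG00000028195) had a level of 2.67 and 3.07 in the *scramble* libraries and of 6.24 and 6.44 in the knockdown libraries. The group means were 2.87 ± 0.28 and 6.34 ± 0.14 (SD, n = 2 each). Both knockdown libraries were therefore higher, and the groups did not overlap. In such bulk samples, a different share of cells that express a gene and a different amount of its RNA per cell cannot be told apart. The ratio of the mean levels, *Rhox6* shRNA over *scramble*, was 2.21.

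*Ccn2* (ENSMUSG00000019997) reached 9.87 and 9.96 in the *scramble* libraries against 24.57 and 20.92 in the knockdown libraries. The means were 9.92 ± 0.064 and 22.7 ± 2.6 (SD, n = 2 each), with a ratio of 2.29. The *scramble* libraries were nearly equal, whereas knockdown replicate 1 was 1.17 times as high as replicate 2. This spread was small beside the gap between the groups, as the lower knockdown library was still 2.10 times as high as the higher *scramble* library.

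*Lats2* (ENSMUSG00000021959), the only kinase of the 4, had levels of 1.08 and 0.96 in the *scramble* libraries and of 2.92 and 2.62 in the knockdown libraries. The means were 1.02 ± 0.085 and 2.77 ± 0.21 (SD, n = 2 each), with a ratio of 2.72. The groups did not overlap.

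*Thbs1* (ENSMUSG00000040152) was at 0.32 in both *scramble* libraries, against 0.97 and 1.11 in the knockdown libraries, with a mean of 1.04 ± 0.099 (SD, n = 2) in the latter. Its ratio of 3.25 was the largest of the 4. The levels are deposited with 2 decimals, and 1 step of 0.01 equals 3.13% of the *Thbs1* level in *scramble* cells, so *scramble* values that differ by less than this step appear equal. The level in its unnamed unit was low in both groups, and the number of reads behind it is unknown.

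**Figure D1:**
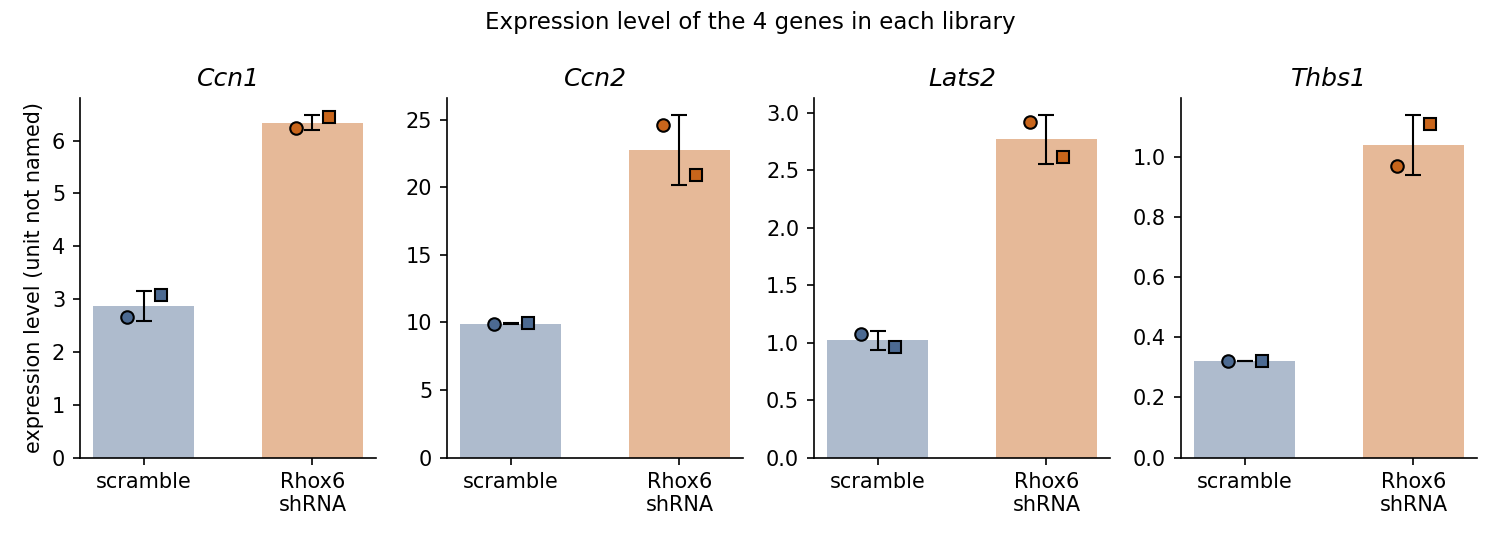
Expression level (vertical axes, from 0, in the authors' unnamed unit, with a scale of its own for each gene) of *Ccn1*, *Ccn2*, *Lats2* and *Thbs1* in *scramble* (blue) and *Rhox6* shRNA (orange) libraries. Bars show the mean, error bars the SD (n = 2), circles replicate 1 and squares replicate 2; for each gene both orange points lie above both blue points.

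The 4 genes differed in how far the groups stood apart. For each gene, the ratio of single libraries ran from the lower knockdown library over the higher *scramble* library to the higher over the lower. This range was 2.03 to 2.41 for *Ccn1*, 2.10 to 2.49 for *Ccn2*, 2.43 to 3.04 for *Lats2* and 3.03 to 3.47 for *Thbs1*. In this order, each gene's range overlapped with that of its neighbour, so neighbours did not differ beyond their spread. The ranges of *Ccn1* and *Lats2* did not overlap, and that of *Thbs1* overlapped with neither *Ccn1* nor *Ccn2*.

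On the scale of log2(level + 1), which reduces the differences of genes with low levels, the order was another one. The log2 difference, *Rhox6* shRNA minus *scramble*, was 0.93 for *Ccn1*, 1.12 for *Ccn2*, 0.90 for *Lats2* and 0.63 for *Thbs1*. *Thbs1* thus had the smallest difference on this scale and the largest ratio. When each library was divided by its sum over the listed genes, the differences were 0.68, 0.83, 0.71 and 0.51, all still higher in knockdown cells. These sums were 9627 and 9586 with *scramble* and 11973 and 11853 with knockdown. They differed less than the levels of the 4 genes, so this scaling could not reverse a direction.

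For 4 of the 4 genes, each knockdown library exceeded each *scramble* library. This was so for 54.1% of the 920 listed genes, while both were below for 44.2%, and since the 4 genes were chosen for being higher, nothing is read from their count. Among the 504 listed genes with a higher mean level in knockdown cells, the median ratio was 2.88, and the median over the 4 genes was 2.50. A larger ratio than that of *Ccn1* was found for 427 of these 504 genes (84.7%), and a larger one than that of *Ccn2* for 400 (79.4%). The numbers were 286 (56.7%) for *Lats2* and 202 (40.1%) for *Thbs1*. *Ccn1* and *Ccn2* thus lay in the lower part of the range of the higher genes, and *Lats2* and *Thbs1* near its middle. Among higher genes within 2-fold of the *scramble* level of each gene, the median ratio was 2.62 (*Ccn1*), 2.42 (*Ccn2*), 2.83 (*Lats2*) and 4.04 (*Thbs1*). Each of the 4 genes had a ratio below the median of the genes of like level.

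**Figure D2:**
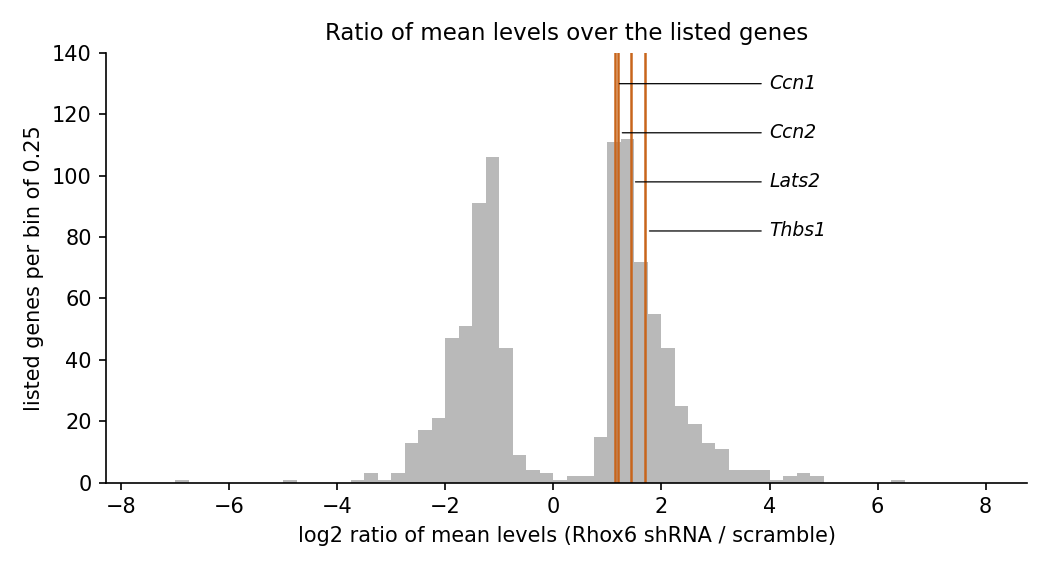
Histogram of the log2 ratio of mean levels (knockdown over *scramble*) for the 919 listed genes with a finite ratio, in bins of 0.25, with the 4 genes drawn as orange lines. The lines lie within the tall part of the right-hand peak, and few genes lie near 0 because the table holds only genes called by the authors.

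The positions of the genes bear on how reads were assigned to them. On GRCm38 (GENCODE M21), *Ccn1* spans 145646976 to 145649981 on the − strand of chromosome 3 and *Ccn2* spans 24595442 to 24598683 on the + strand of chromosome 10. *Lats2* spans 57689662 to 57758388 on the − strand of chromosome 14 and *Thbs1* spans 118111876 to 118127133 on the + strand of chromosome 2. The paralogs *Ccn1* and *Ccn2* both have 5 exons in the transcript with the longest coding sequence, and *Lats2* and *Thbs1* have 8 and 22.

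No stretch of 50 bases of the annotated *Ccn1* transcript was found in a transcript of any other annotated gene, *Ccn2* included. Of the distinct 50-base stretches of *Lats2* transcripts, 41.2% were also in *Gm49361*, a protein-coding gene model on the same strand that overlaps *Lats2*. This is a share of annotated sequence and not of reads. How reads from these stretches were assigned is not known, so the level of *Lats2* is uncertain by an unknown amount. *Ccn2* shared 17.2% of its stretches with *Gm15270* and *Thbs1* shared 1.89% with the lincRNA *Gm29233*, both on the opposite strand. The sources used here do not state whether reads were counted by strand. Without strand, reads from the shared stretches cannot be told apart between these 2 genes and their antisense partners. None of these 3 gene models is among the listed genes.

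Of a list of 32 known YAP targets, 9 were in the table, the 4 genes among them. The direction of these 4 was known when they were chosen, so they are left out of the count of calls. Of the 5 other listed targets, 4 were called higher and 1 lower in knockdown cells at an adjusted p under 0.05 (limma, Benjamini-Hochberg over the 920 genes). Over all listed genes, 53.7% were called higher and 42.9% lower. All listed targets had been selected by the authors on the same libraries, so the calls are not independent evidence of a direction. The other 23 targets are not in the table, and their levels were not analysed here.

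*Tgfb1i1*, which encodes the focal adhesion adaptor Hic-5, had levels of 1.25 and 0.97 with *scramble* and of 4.58 and 4.69 with knockdown. Its log2 difference of 1.42 (standard error 0.13, limma adjusted p = 0.00065) was the largest of the listed YAP targets. It was also the only listed gene in a list of 25 targets of the serum response factor. This list is not complete, as it leaves out *Ccn1*, which that factor is also known to regulate. *Myof*, which encodes the membrane protein myoferlin, rose from 21.5 ± 2.8 to 51.2 ± 0.28 (SD, n = 2 each). *Nt5e*, which encodes the ecto-nucleotidase CD73, rose from 2.25 ± 0.21 to 5.39 ± 0.54 (SD, n = 2 each). Their ratios of 2.38 and 2.40 were within the range of single-library ratios of *Ccn2*.

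*Edn1*, which encodes the vasoconstrictor peptide endothelin 1, had levels of 0.03 and 0.13 with *scramble* and of 1.38 and 1.53 with knockdown. The *scramble* levels were too near 0 for its ratio to be a reliable size, and its log2 difference of 1.19 had a standard error of 0.10 (limma adjusted p = 0.000521). *Axl*, a receptor tyrosine kinase, went the other way and is named after its values were seen, as the single listed target that fell. Its levels were 3.25 and 2.49 with *scramble* and 1.11 and 1.46 with knockdown, with a log2 difference of −0.76 (standard error 0.17, limma adjusted p = 0.00733). The RefSeq promoter windows of *Axl* and *Edn1* each held 1 TEAD motif, and those of *Myof* and *Nt5e* held none. No window was matched for *Tgfb1i1*, so it was not searched. The motif was thus found at *Edn1*, which was higher, and at *Axl*, which was lower. Of all promoter windows, 14.7% held it, so nothing is read from these matches.

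Of 43 components and regulators of the Hippo pathway, 3 were listed. *Lats2* was chosen for being higher, and the other 2 were called lower. Of all listed genes, 42.9% were called lower, so nothing is read from this count. *Amot*, which encodes angiomotin, a junctional scaffold that binds YAP, had levels of 5.47 and 5.77 with *scramble* and of 2.44 and 2.77 with knockdown. Its log2 difference of −0.88 had a standard error of 0.12 (limma adjusted p = 0.00173). *Crb3*, a Crumbs protein of the apical polarity complex, fell from 21.4 ± 1.3 to 6.37 ± 1.4 (SD, n = 2 each). The genes for YAP, TAZ, the TEAD factors and LATS1 are not in the table. Their RNA levels were not analysed here, and RNA levels do not show the phosphorylation or location of YAP.

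Within their own families, *Ccn1*, *Ccn2* and *Thbs1* were the 3 listed genes of 11 CCN and thrombospondin genes. None of 15 genes for integrins and other receptors of these proteins, *Cd36* and *Cd47* among them, was listed. *Ccn1* is known as an immediate early gene, which serum induces within minutes to hours, and it ran against the other listed genes of that class. Of 24 immediate early genes, 5 were listed. Beside *Ccn1*, which was chosen for being higher, *Junb*, *Ier3*, *Zfp36* and *Maff* were called lower, where 42.9% of all listed genes were. *Ier3* fell from 35.1 ± 3.2 to 9.45 ± 0.28, and *Zfp36*, which encodes an mRNA decay factor, from 5.97 ± 0.092 to 1.57 ± 0.042 (SD, n = 2 each). *Junb*, a subunit of AP-1, fell by 1.19 on the log2 scale and *Maff*, a small Maf factor, by 1.54.

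*Ccn2* and *Thbs1* are also known to be induced by TGF-β. Of 20 such genes, 6 were listed. Beside *Ccn2* and *Thbs1*, 2 were called higher and 2 lower, where 53.7% and 42.9% of all listed genes were. *Tgfbi*, a secreted matrix protein, rose from 3.51 ± 0.12 to 12.1 ± 0.064. *Pmepa1*, which encodes an inhibitor of TGF-β signaling, rose from 5.71 ± 0.071 to 10.8 ± 0.042 (SD, n = 2 each). *Bhlhe40*, a transcriptional repressor, fell from 22.9 ± 1.0 to 8.49 ± 0.85. *Ltbp3*, which encodes a protein that binds latent TGF-β, had levels of 5.47 and 8.93 with *scramble* and of 1.83 and 2.97 with knockdown. Its log2 difference was −1.26 with all libraries and −0.95 without *scramble* replicate 2, where it was no longer called. That fit leaves 1 *scramble* library, so the lost call cannot be put down to the removed library alone. Of 24 targets of p53, which is known to induce both *Lats2* and *Thbs1*, these 2 were the only listed ones.

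**Figure D3:**
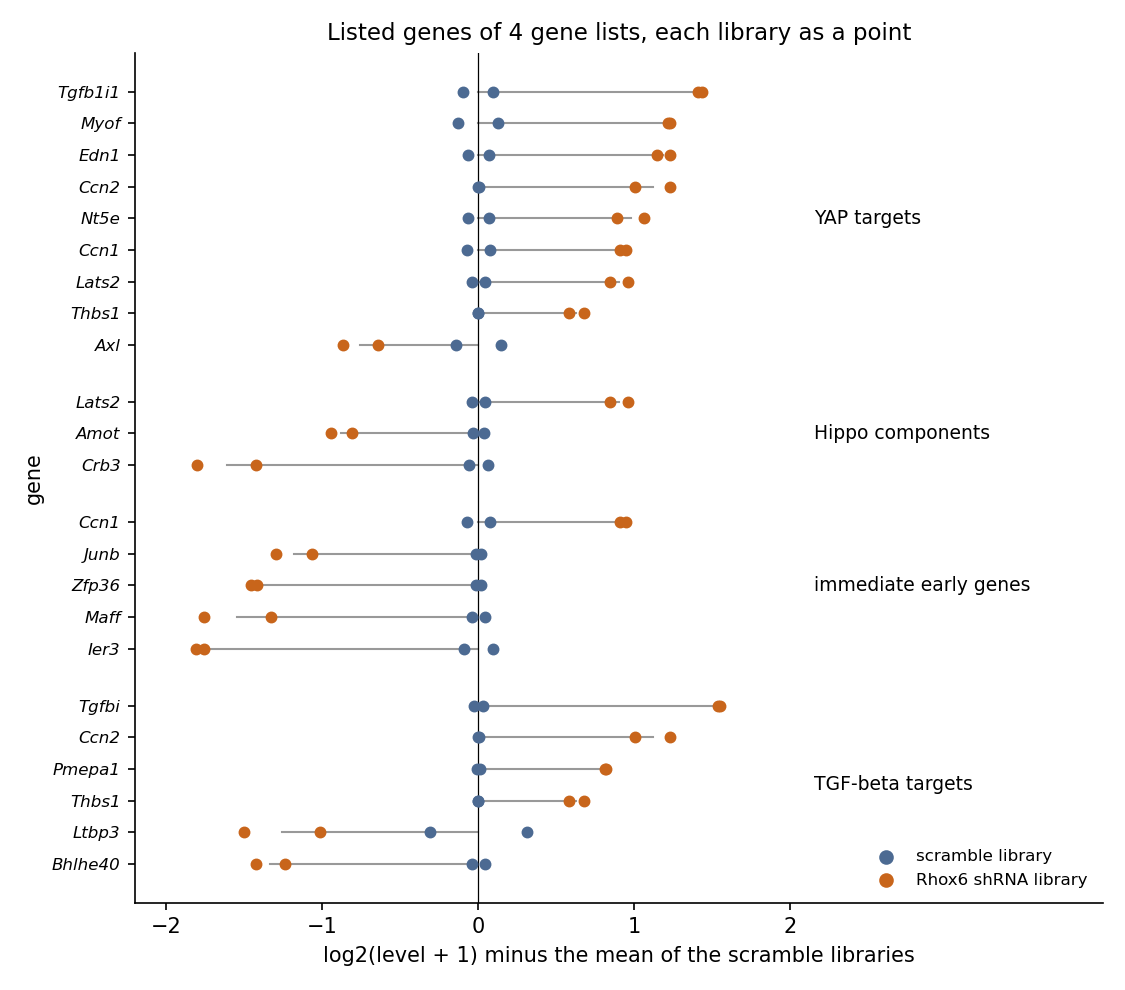
Level of each listed gene of 4 gene lists in each library, as log2(level + 1) minus the mean of the *scramble* libraries (horizontal axis), with blue points for *scramble* and orange points for knockdown libraries and a line to the difference of the means. Of the 5 listed YAP targets other than the 4 chosen genes, 4 lie to the right and *Axl* to the left. *Ccn1* was chosen for being higher, and the other 4 listed immediate early genes lie to the left. Over all listed genes, 53.7% were called higher and 42.9% lower. *Ccn1*, *Ccn2*, *Lats2* and *Thbs1* are drawn in each list that holds them.

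*Ccn1*, *Ccn2* and *Thbs1* are abundant in fibroblasts, so markers of other cell types were looked up. None of 12 fibroblast markers, *Col1a1* and *Thy1* among them, was listed, and their levels were not analysed here. Of 8 markers of primitive and visceral endoderm, *Gata6*, *Dab2* and *Cubn* were listed, and their summed level was 27.9 to 29.6 in the *scramble* libraries and 6.64 to 7.21 in the knockdown libraries. Of 7 trophoblast markers, *Krt18*, *Krt19* and *Gata3* were listed, with a summed level of 29.8 to 31.3 and of 10.9 to 13.2; *Gata3* alone was called higher. Of 8 mESC markers, *Nanog*, *Klf4* and *Tbx3* were listed, with a summed level of 171 to 175 and of 451 to 463. The other markers of these lists are not in the table and were not analysed here. Each listed marker had been selected by the authors for a difference between these libraries, so a difference in the sums is no independent result. Over all listed genes, 53.7% were called higher and 42.9% lower. The summed levels of the listed markers differed between the groups together with the 4 genes, and their part in the result was not tested. *Rhox6* itself is not a listed gene, and the labels could not be checked against it here.

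The listed genes with the most similar pattern over the 4 libraries were found by the Euclidean distance between log2(level + 1) profiles, each centred on its mean. Nearest to *Ccn1* were *Grip1*, *Smox* and *Nefl*, at distances of 0.038, 0.052 and 0.057. Nearest to *Ccn2* were *Fam169b*, *Lefty1* and *Vax2os*, at 0.058, 0.058 and 0.070. *Nfib*, *Tmem108* and *Msx2* were nearest to *Lats2* (0.044, 0.073 and 0.078), and *Trib2*, *Pcdhga2* and *Pcdhgb7* to *Thbs1* (0.048, 0.061 and 0.064). The 4 genes were farther from each other than from these genes. On this scale, *Ccn1* and *Lats2* were the closest pair, at a distance of 0.20, and *Ccn2* and *Thbs1* were the farthest apart, at 0.54. With 4 libraries in 2 groups, these distances mainly reflect the size of the group difference on the log2(level + 1) scale. As this scale reduces the difference of low levels, genes of unlike ratio can lie close, such as *Thbs1* (3.25) and *Trib2* (1.78). Distances without a pseudocount were not computed, so the order of the pairs holds for this scale only.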

How the data were processed

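RNA of 46C mESCs was extracted with Trizol and sequenced on Illumina instruments. The authors processed the reads and deposited 1 table with 920 genes and 4 library columns of a normalized signal. It is called the expression level, and its unit is not named. Read counts were not analysed here, and how deeply each library was sequenced is unknown. Bowtie 0.12.2 and mm9 are listed in the submitters' notes without a role. The counter, the annotation and the test are not given in the sources that were used. The deposited columns of the authors' fold change (a ratio), its log2 value, p-value and adjusted p-value, and their mean levels per group, were not used. Libraries were grouped by their titles.

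Levels were taken to log2(level + 1) and fitted in R 4.3.3 with limma 3.58.1, using a variance trend and Benjamini-Hochberg adjustment over the 920 genes, and a gene was called at an adjusted p under 0.05. The fit was tested on simulated data. Nothing states that replicates were separate cultures, so p-values measure only the spread between these libraries, which may be technical, and they are too small for genes selected on the same libraries. The 4 genes, the lists and the tests were chosen with earlier results of these data known. Named genes are the 4 genes, the listed members of 8 lists (the 6 with the largest absolute difference where over 6 were listed) and the 3 nearest profiles per gene, without predicted genes. Listed genes of 4 lists of cell type markers and *Axl* are named as well. Alternatives were another pseudocount or none (the latter chosen after seeing the data), a filter on the level, 2 scalings, no variance trend, a replicate block and each library left out. Positions and transcripts are from GENCODE M21 (GRCm38), and promoters from RefSeq (GRCm38.p6), neither of which is the build in the notes.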

Additional observations from a re-analysis of the deposited data

How the results depend on the processing

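*Ccn1*, *Ccn2*, *Lats2* and *Thbs1* were higher in *Rhox6* shRNA cells under each alternative that was run on them. With each library divided by its sum over the listed genes, their log2 differences were 0.68, 0.83, 0.71 and 0.51, and the median over the 920 genes moved by −0.12, to 0.45. With a pseudocount of 0.1, the values of *Ccn1*, *Lats2* and *Thbs1* were 1.12, 1.36 and 1.44, and with none they were 1.15, 1.44 and 1.70, since the pseudocount reduces the difference of low levels. With 1 library left out, the ranges were 0.85 to 1.00 (*Ccn1*), 1.01 to 1.23 (*Ccn2*), 0.84 to 0.96 (*Lats2*) and 0.58 to 0.68 (*Thbs1*). An arm with 1 library is assumed to vary like the other group. The number of genes called, 889 with all libraries, was 811 to 854 without 1 library and 880 to 896 under the other alternatives that kept all 920 genes. The filter on the level left 826 genes, of which 799 were called. With the replicate number as a block, 896 genes were called, and the differences of the 4 genes were the same. The numbers are not stated to mark a shared batch, and the deviations of same-numbered libraries had a correlation of −0.044 across genes. The counts of listed YAP targets and Hippo components by direction were the same with scaling to equal sums and by the sign of the difference alone. The depth is unknown, and the deposited 2 decimals limit *Thbs1* the most of the 4 genes, with 1 step equal to 3.13% of its *scramble* level.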
